A study of Mus musculus with 3 samples.

Results

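The 10 genes described here form the first control point of the cell cycle: the D cyclins Ccnd1, Ccnd2 and Ccnd3, their kinase partners Cdk4 and Cdk6, and the CDK inhibitors Cdkn1a, Cdkn1b, Cdkn2a, Cdkn2b and Cdkn2c. They were taken as a fixed list of names, and all 10 were found among the 23442 genes in the files. RNA came from mouse embryonic stem cells that had been grown for 4.75 days as embryoid bodies, the floating aggregates in which stem cells differentiate. Endothelial cells were then sorted from them by the surface proteins Tie2 and CD31, without the blood marker CD41. Cells came from a wild-type line (WT), a line lacking Scl (SclKO, the gene now called Tal1) and a line labelled as lacking Gata1 and Gata2 (Gata12KO), with 1 library each and 3 libraries in all. All shared the same culture steps, sort, day and library kit. The sources used here do not say whether a knockout line is a single clone. With 1 library per group there is no replicate check of any difference, so no p-value is given, and every statement describes these libraries.

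D cyclins are the cyclins that respond to growth signals. Bound to CDK4 or CDK6, they phosphorylate the retinoblastoma protein RB, which releases E2F factors to switch on genes for DNA replication. INK4 inhibitors (Cdkn2a, Cdkn2b, Cdkn2c) bind CDK4 and CDK6 alone and keep cyclins off them. CIP/KIP inhibitors (Cdkn1a, Cdkn1b) bind cyclin and CDK together, and act mostly on the CDK2 complexes of the next step. In blood and endothelial development D cyclins and these kinases partly stand in for one another, and CDK6 is known for its role in blood stem and progenitor cells.

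Levels are given in FPKM, a count of fragments divided by transcript length and library size, so levels of different genes can be compared per length. The deposited lower and upper bounds stand in parentheses after each level and cover no spread between cultures. For genes with 1 transcript they lie 2 Poisson standard deviations from the level, which gives the depth of each library. For Ccnd3, Cdkn1a and Cdkn2a, whose transcripts share bases, some bounds are wider than that. Reads behind a level were therefore estimated for all genes from the level, the transcript length and the library's depth. Implied depth was 31.6M fragments in WT, 28.3M in SclKO and 50.3M in the library labelled Gata12KO. Tal1 had 51.0 FPKM in WT, 1.59 in SclKO and 38.7 in the library labelled Gata12KO. Gata2 had 12.0, 5.81 and 44.9 FPKM, and Gata1 4.64, listed at 0, and 5.66, and the library labelled Gata12KO was not below WT for either gene. These levels cover whole transcripts, and the sources used here do not say which exons were deleted, so the label could not be checked from them. Of 14 endothelial markers, 14 reached 1 FPKM in WT, 13 in SclKO and 14 in the library labelled Gata12KO. Their summed levels were 703, 321 and 842 FPKM, and differences in single markers are given below with the markers of other cells.

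Ccnd3 was the dominant D cyclin in all 3 libraries. It lies on chromosome 17 (47642000 to 47736637, forward strand, mm9), where WT held 176 FPKM (172 to 180), SclKO 97.9 (94.6 to 101) and the library labelled Gata12KO 104 (101 to 107). WT stood above the other libraries with bounds apart, while the bounds of SclKO and the library labelled Gata12KO overlapped. Its exons share 358 bases with Bysl on the opposite strand, a ribosome assembly gene at 10.8, 10.9 and 9.88 FPKM in the same order. The sources used here do not say whether strand was used, so reads in those bases may come from either gene.

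The files hold 3 Ccnd3 transcripts, which begin at start sites 88416 bases apart. Nearly all signal was on the downstream one, at 175, 96.0 and 104 FPKM in WT, SclKO and the library labelled Gata12KO. Transcripts from the upstream site had 1.64, 1.91 and 0.430 FPKM, resting on an estimated 98, 101 and 42 reads. They made up 0.928%, 1.96% and 0.414% of the gene's level. Nearly all of that upstream level lay on a different transcript in the library labelled Gata12KO than in WT and SclKO. Bounds of those transcripts were 1.18 to 2.10, 1.40 to 2.43 and 0.169 to 0.691 FPKM, as wide as 51, 55 and 11 reads would give. The 250 bases before each start are printed from the RefSeq promoter table (GRCm38.p6, forward strand), because these are the starts between which the signal divides. Capitals mark GC boxes (GGGCGG or its complement CCGCCC, a binding site of Sp1).
Ccnd3 upstream start, chr17:47504801-47505050: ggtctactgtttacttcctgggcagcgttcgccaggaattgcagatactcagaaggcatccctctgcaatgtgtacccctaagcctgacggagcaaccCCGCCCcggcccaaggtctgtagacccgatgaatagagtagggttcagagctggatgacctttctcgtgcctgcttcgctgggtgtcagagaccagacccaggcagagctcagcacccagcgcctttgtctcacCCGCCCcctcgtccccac
Ccnd3 downstream start, chr17:47593217-47593466: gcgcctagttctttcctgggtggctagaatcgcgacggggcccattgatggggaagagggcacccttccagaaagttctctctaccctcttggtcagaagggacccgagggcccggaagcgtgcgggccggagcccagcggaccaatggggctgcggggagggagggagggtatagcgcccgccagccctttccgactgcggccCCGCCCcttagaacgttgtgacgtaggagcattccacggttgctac
The upstream window has 2 GC boxes and 11 CpG pairs, and the downstream window 1 GC box and 19 CpG pairs. Over 32851 promoter windows of this length, 32.7% hold a GC box and the median is 6 CpG pairs. Other motifs were searched on both strands. The TATA box motif TATAAA occurs in 12.4% of all windows and in neither of these. The motif AGATAA, which GATA factors bind, occurs in 9.99% of all windows and in neither of these. The E-box motif CAGATG, which Scl binds with its partners, occurs in 14.4% of all windows and in neither of these.

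Ccnd1, the D cyclin best known as a target of growth factor signalling, was highest in SclKO. It lies on chromosome 7 (152115836 to 152125830, reverse strand, mm9) as 1 transcript of 5 exons. WT held 18.2 FPKM (17.4 to 19.0), SclKO 36.4 (35.2 to 37.6) and the library labelled Gata12KO 22.5 (21.8 to 23.2). The bounds of all 3 libraries were apart, with SclKO the highest. Estimated reads behind these values numbered 2078, 3700 and 4113.

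Ccnd2, the third D cyclin, was scarce. It lies on chromosome 6 (127075727 to 127101066, reverse strand, mm9). WT held 2.57 FPKM (2.33 to 2.81), SclKO 6.01 (5.62 to 6.40) and the library labelled Gata12KO 2.51 (2.32 to 2.69). SclKO stood apart, and the other libraries had overlapping bounds. Per length, Ccnd2 was thus the least abundant D cyclin in each library.

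**Figure D1:**
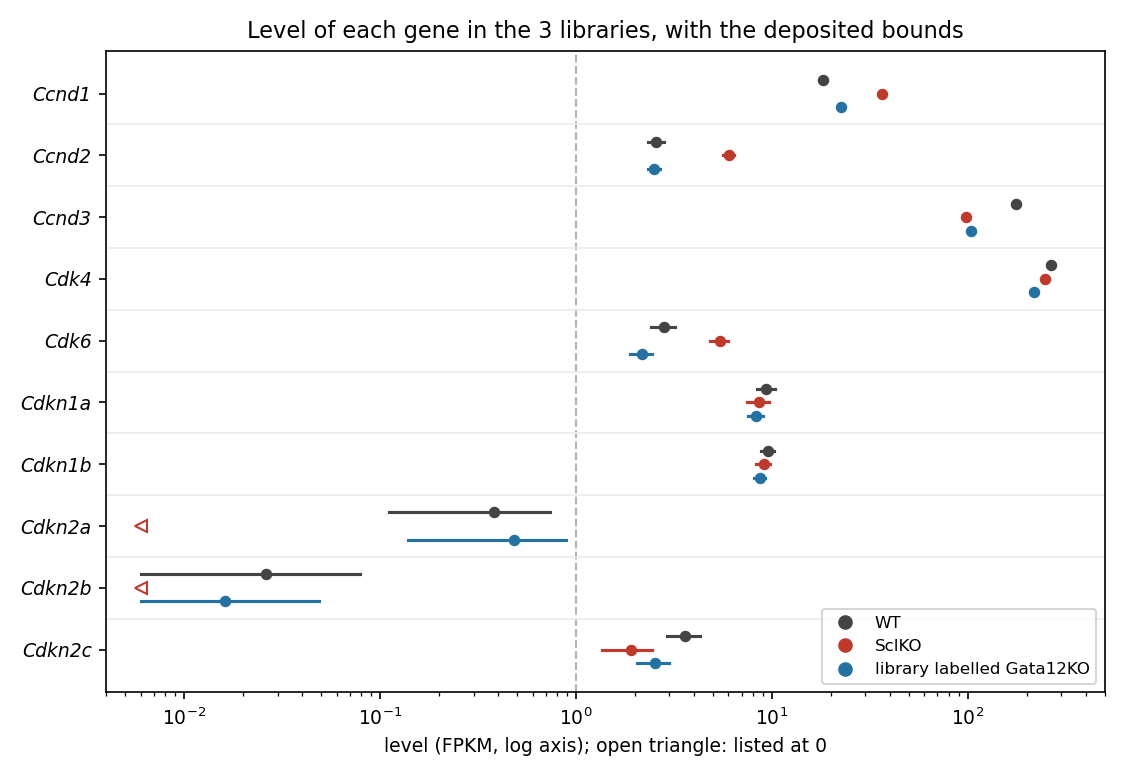
Level of each of the 10 genes in the 3 libraries (FPKM, log axis), 1 point per library with the deposited bounds as a line, an open triangle where a gene is listed at 0 and a dashed line at 1 FPKM (bounds of 0 are cut at the axis). Ccnd1, Ccnd2 and Cdk6 stand to the right in SclKO, Ccnd3 stands to the right in WT, and Cdkn1a and Cdkn1b have overlapping bounds.

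The share of each gene in the summed D cyclin level does not depend on how libraries are scaled to each other. Ccnd3 made up 89.5% of it in WT, 69.8% in SclKO and 80.6% in the library labelled Gata12KO. Combining the bounds of all 3 genes gave 88.8% to 90.1%, 68.2% to 71.3% and 79.5% to 81.6% for these shares, ranges that do not overlap. Ccnd1 made up 9.24%, 25.9% and 17.5%, and Ccnd2 1.30%, 4.28% and 1.94%. In terms of ratios, the level of Ccnd3 divided by that of Ccnd1 was 9.68 in WT, 2.69 in SclKO and 4.61 in the library labelled Gata12KO. Such shares and ratios can shift with the trend by transcript length described below, which the bounds do not cover. Removing it moved log2 ratios in the library labelled Gata12KO against WT. Ccnd3 went from -0.76 to -0.58 and Ccnd1 from 0.29 to 0.26. The summed level itself, which does depend on scaling, was 197, 140 and 129 FPKM. Ccnd3 remained the largest component of that sum in every library.

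**Figure D2:**
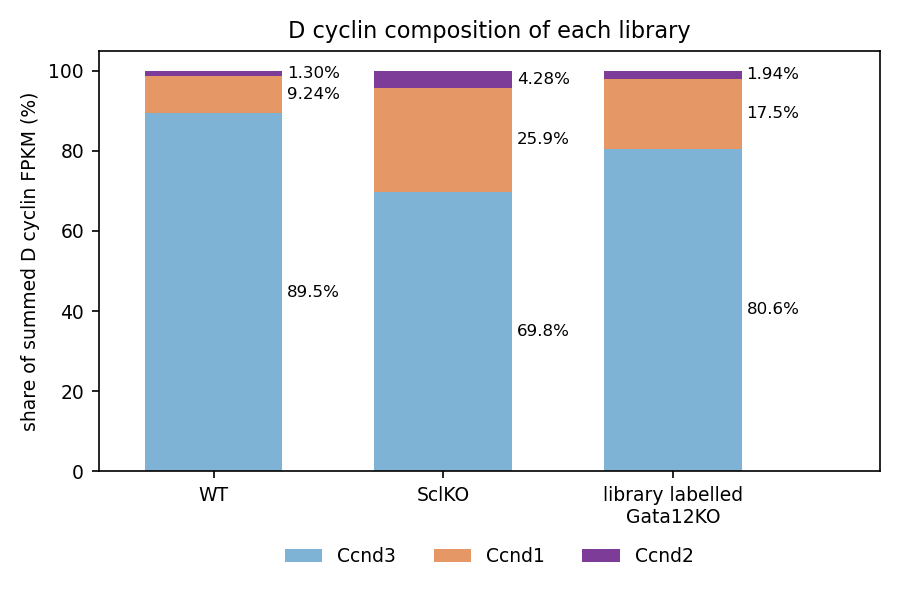
Share of Ccnd3, Ccnd1 and Ccnd2 in the summed D cyclin FPKM of each library (percent, 1 bar per library, no replicates). Ccnd3 fills 89.5% of the WT bar, 69.8% of the SclKO bar and 80.6% of the bar for the library labelled Gata12KO.

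Among the kinases, Cdk4 was abundant and Cdk6 scarce. Cdk4, on chromosome 10 (126500659 to 126504338, forward strand, mm9, 8 exons), stood at 264 FPKM (259 to 270) in WT, 248 (243 to 254) in SclKO and 218 (214 to 222) in the library labelled Gata12KO. The 3 sets of bounds were apart, although SclKO was only 1.06-fold below WT. At this level Cdk4 exceeded 98.3% of expressed genes in WT. Cdk4 is short, at 1346 nt, and its sign depended on the trend of ratios with transcript length described below.

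Cdk6, on chromosome 5 (3344312 to 3522225, forward strand, mm9, 7 exons), stood at 2.80 FPKM (2.40 to 3.19) in WT, 5.42 (4.84 to 6.00) in SclKO and 2.17 (1.89 to 2.44) in the library labelled Gata12KO. SclKO was the highest and its bounds lay apart from both others, which overlapped. These levels rest on 202, 348 and 251 reads. The level of Cdk4 divided by that of Cdk6 was 94.5 in WT, 45.8 in SclKO and 101 in the library labelled Gata12KO. The 250 bases before the Cdk6 start (RefSeq, GRCm38.p6, forward strand) are shown because Cdk6 was the gene of the 10 with a 2-fold call below. Capitals mark TATAAA.
Cdk6, chr5:3343643-3343892: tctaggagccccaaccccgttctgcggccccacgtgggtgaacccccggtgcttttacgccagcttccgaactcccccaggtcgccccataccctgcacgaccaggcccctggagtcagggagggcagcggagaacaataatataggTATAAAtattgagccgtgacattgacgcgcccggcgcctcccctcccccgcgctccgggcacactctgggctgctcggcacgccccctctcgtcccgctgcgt
The window holds 22 CpG pairs and the TATAAA begins 103 bases before the start. No GC box occurs in it on either strand. The table covers 8 of the 10 genes, Ccnd1 and Ccnd2 not among them, and none of their 12 windows held the GATA motif or the E-box motif searched. At the shares of 9.99% and 14.4% among all windows, 12 windows need not hold either. Only the forms AGATAA and CAGATG were searched, so other sites may be present.

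The CIP/KIP genes Cdkn1a and Cdkn1b had similar levels in the 3 libraries. Cdkn1a encodes p21, a direct target of the tumour suppressor p53, and lies on chromosome 17 (29227931 to 29237667, forward strand, mm9). WT held 9.37 FPKM (8.38 to 10.4), SclKO 8.55 (7.45 to 9.64) and the library labelled Gata12KO 8.29 (7.58 to 8.99). Cdkn1b encodes p27, which is controlled largely through its breakdown, and lies on chromosome 6 (134870419 to 134875543, forward strand, mm9). Its level was 9.53 FPKM (8.79 to 10.3), 9.07 (8.31 to 9.83) and 8.70 (8.14 to 9.25) in the same order. For both genes the bounds of all 3 libraries overlapped. The ratio of Cdkn1b to Cdkn1a within a library was 1.02, 1.06 and 1.05. For Cdkn1a the bounds allow a log2 ratio of -0.43 to 0.18 in SclKO against WT and -0.40 to 0.09 in the library labelled Gata12KO against WT. For Cdkn1b they allow -0.28 to 0.15 and -0.30 to 0.07. These ranges set the lower bound of 1 library against the upper bound of the other. They cover no spread between cultures and are not limits of detection.

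Cdkn1a has 2 transcripts in the files, whose starts lie 2786 bases apart. The downstream one carried 9.18, 8.08 and 8.19 FPKM in WT, SclKO and the library labelled Gata12KO. The upstream one had 0.197 (0.0349 to 0.358), 0.465 (0.208 to 0.723) and 0.0906 (0.000734 to 0.180) FPKM, on an estimated 11, 23 and 8 reads. Its bounds in SclKO overlapped those of WT and lay above those of the library labelled Gata12KO. Both windows of 250 bases are printed (RefSeq, GRCm38.p6, forward strand, starts 2790 bases apart in that table) to show what precedes the used and the little-used start. Capitals mark GC boxes in the downstream window. In the upstream window they mark a p53 response element, a pair of 10-base motifs end to end with at most 1 mismatch over 20 bases.
Cdkn1a upstream start, chr17:29090729-29090978: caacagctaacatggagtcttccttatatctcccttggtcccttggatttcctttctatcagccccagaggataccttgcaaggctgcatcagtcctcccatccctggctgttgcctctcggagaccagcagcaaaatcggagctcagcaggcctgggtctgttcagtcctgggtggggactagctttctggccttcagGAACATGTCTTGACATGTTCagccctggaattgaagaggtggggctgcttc
Cdkn1a downstream start, chr17:29093519-29093768: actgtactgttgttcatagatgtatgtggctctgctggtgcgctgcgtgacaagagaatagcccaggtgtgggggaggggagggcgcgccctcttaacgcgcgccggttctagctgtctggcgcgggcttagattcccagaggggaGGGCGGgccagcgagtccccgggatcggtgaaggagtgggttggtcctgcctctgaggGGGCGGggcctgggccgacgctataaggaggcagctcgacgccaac
The p53 element begins 51 bases before the upstream start. Only 25 of 32851 windows, or 0.0761%, hold such an element. The downstream window has 19 CpG pairs and 2 GC boxes, and the upstream one 2 CpG pairs and no GC box. A sequence match is a description and does not show binding in these cells.

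Of the INK4 genes Cdkn2a, Cdkn2b and Cdkn2c, the last alone reached 1 FPKM. Cdkn2c encodes p18 and lies on chromosome 4 (109333481 to 109337977, reverse strand, mm9). WT held 3.61 FPKM (2.90 to 4.31), SclKO 1.91 (1.36 to 2.46) and the library labelled Gata12KO 2.52 (2.06 to 2.98). WT and SclKO had bounds apart, and the library labelled Gata12KO overlapped both. Only 105, 49 and 119 reads lie behind these values.

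Cdkn2a and Cdkn2b, neighbours on chromosome 4 that restrain ageing and tumour cells, were near 0. Cdkn2a gives rise to p16, an INK4 inhibitor, and from another first exon to p19ARF, which protects p53. The p16 transcript (88920377 to 88928096, reverse strand, mm9) stood at 0.381 FPKM (0.112 to 0.650) in WT and 0.372 (0.139 to 0.604) in the library labelled Gata12KO, and SclKO lists it at 0. The p19ARF transcript (88920377 to 88940523) was at or near 0 in WT and SclKO and had 0.110 FPKM in the library labelled Gata12KO (0 to 0.284). Both kinds together rest on an estimated 8 reads for WT and 17 for the library labelled Gata12KO. Cdkn2b, which encodes p15 (88952198 to 88956941, reverse strand), stood at 0.0262 and 0.0162 FPKM in WT and the library labelled Gata12KO, 1 read in each, and SclKO lists it at 0. Both genes stayed under the minimum of 1 FPKM used below, and no fold is given for them.

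To set these levels against all genes, ratios were taken as log2((FPKM + 1)/(FPKM + 1)), which makes ratios of scarce genes smaller than their fold. The words higher and lower are used as calls for a gene that reached 1 FPKM in any library, differed by 2-fold or more on this scale and had bounds apart. Of 23442 genes 11092 reached 1 FPKM, among them 8 of the 10. In SclKO against WT, 0 of the 8 were called, while 6.40% of all expressed genes were. Of the 8, then, none passed the 2-fold limit. The closest were Ccnd2 with a log2 ratio of 0.97 (range of the bounds 0.80 to 1.15) and Ccnd1 with 0.96 (0.85 to 1.07). They were followed by Ccnd3 with -0.84 (-0.93 to -0.76), Cdk6 with 0.76 (0.48 to 1.04) and Cdkn2c with -0.66 (-1.17 to -0.18). Without the added 1, SclKO held 2.34-fold more Ccnd2, 2.00-fold more Ccnd1 and 1.94-fold more Cdk6 than WT, and 1.80-fold less Ccnd3 and 1.89-fold less Cdkn2c.

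Ccnd1, Ccnd2 and Cdk6 lay high in the spread of all genes in SclKO against WT. Their ratios exceeded those of 97.3%, 97.3% and 95.1% of expressed genes, and those of Ccnd3 and Cdkn2c exceeded 6.18% and 9.76%. With 1.5-fold in place of 2-fold, 3 of the 8 (Ccnd1, Ccnd2 and Cdk6) were higher, beside 7.91% of all expressed genes, and 2 (Ccnd3 and Cdkn2c) lower, beside 11.3%. Bounds were apart at any fold for 6 of the 8, but also for 58.0% of all expressed genes. The median log2 ratio of the 8 was -0.08 and that of all expressed genes -0.04, and with the trend of ratios with transcript length removed (described below) that of the 8 was 0.03.

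**Figure D3:**
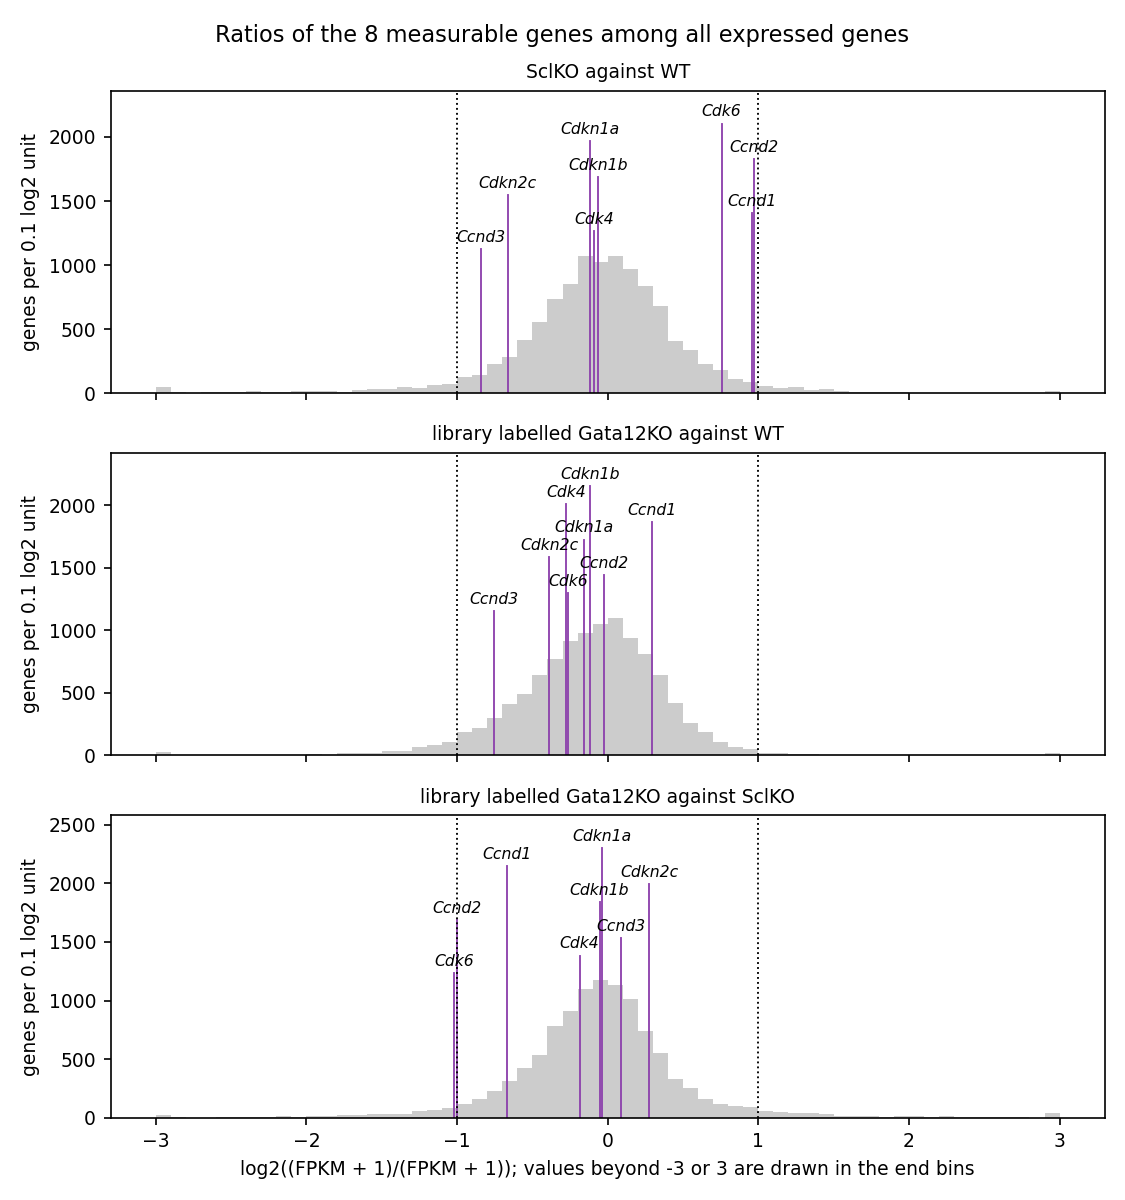
Number of expressed genes by log2 ratio in each comparison (grey, bins of 0.1), with purple lines at the 8 genes that reached 1 FPKM and dotted lines at 2-fold. Ccnd1, Ccnd2 and Cdk6 lie near the upper 2-fold line in SclKO against WT, and Ccnd2 and Cdk6 near the lower one in the library labelled Gata12KO against SclKO.

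In the library labelled Gata12KO against WT, 0 of the 8 genes were called, beside 4.56% of all expressed genes. Ccnd3 had the ratio farthest from 0, at -0.76 (range of the bounds -0.84 to -0.68), and its level was 0.589 of that in WT. It was the 1 gene of the 8 that passed 1.5-fold, where 14.0% of all expressed genes were lower. Ccnd1 had 0.29 (0.19 to 0.40) and Cdk4 -0.28 (-0.33 to -0.22), both with bounds apart. Bounds overlapped for Ccnd2 (-0.03), Cdk6 (-0.26), Cdkn1a (-0.16), Cdkn1b (-0.12) and Cdkn2c (-0.39). Bounds were apart for 3 of the 8, and for 61.8% of all expressed genes. The median of the 8 was -0.21 against -0.08 for all expressed genes, and 0.01 with the length trend removed, so its sign depends on that trend. This comparison and that of SclKO share the WT library, so the same WT level of Ccnd3 enters both of its ratios.

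In the library labelled Gata12KO against SclKO, 1 of the 8 genes was called, beside 7.17% of all expressed genes in either direction and 3.77% lower. This was Cdk6, with a log2 ratio of -1.02 (range of the bounds -1.27 to -0.76) and 2.50-fold less than in SclKO. Ccnd2 fell just short of the limit (range of the bounds -1.16 to -0.84), and without the added 1 its level was 2.40-fold less than in SclKO. Ccnd1 had -0.67 (-0.76 to -0.58) and Cdk4 -0.19 (-0.24 to -0.13), both with bounds apart. Ccnd3 had 0.09 (-0.01 to 0.18). At 1.5-fold, 3 of the 8 were lower (Ccnd1, Ccnd2 and Cdk6), beside 11.4% of all expressed genes. Bounds were apart for 4 of the 8, and for 58.4% of all expressed genes. The call of Cdk6 ended after median-ratio rescaling, at -0.97, after rescaling to the library sum, at -0.42, and with a pseudocount of 5, at -0.54. It also ended with the length trend removed, at -0.96, and Ccnd2 was called instead, at -1.03, beside 2.94% of all expressed genes.

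Ratios followed transcript length in these libraries. In SclKO against WT the median log2 ratio was -0.25 for the 2202 shortest genes (312 to 1532 nt) and 0.09 for the 2200 longest (4574 to 23495 nt). In the library labelled Gata12KO against WT the same medians were -0.47 and 0.12. Ccnd1 (3796 nt) and Ccnd2 (5771 nt) are longer than Ccnd3 (1979 nt), Cdk4 (1346 nt) and Cdkn2c (1106 nt). With that trend removed, the ratios in SclKO against WT were 0.92 for Ccnd1, 0.89 for Ccnd2, 0.78 for Cdk6, -0.77 for Ccnd3 and -0.42 for Cdkn2c. Cdk4 turned from -0.09 to 0.10, and in the library labelled Gata12KO against WT from -0.28 to 0.09, while Cdkn2c went from -0.39 to 0.06 there. Ccnd3 had -0.58 in that comparison with the trend removed and no longer passed 1.5-fold, where 6.36% of all expressed genes were lower.

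Scaling between libraries mattered for the library labelled Gata12KO. Rescaling each library to its summed FPKM moved the median log2 ratio of all expressed genes from -0.08 to 0.51 against WT and from -0.06 to 0.65 against SclKO. On that scale Ccnd3 was at -0.07 and Cdk6 at 0.25 against WT, and Ccnd1 was at 0.12 against SclKO, so those signs or calls depend on it. Less the median of all genes, Ccnd3 was at -0.58 and Cdk6 at -0.26 against WT, and Ccnd1 at -0.53 against SclKO. Transcripts under 300 nt held most of each library's sum. Those of 300 nt or longer held 294948 of 886148 FPKM in WT and 266554 of 966023 in SclKO. In the library labelled Gata12KO they held 237961 of 547471. Relative to the median of all genes, Ccnd1, Ccnd2 and Cdk6 stayed above 0 and Ccnd3 and Cdkn2c below 0 in SclKO against WT under each rescaling and with the length trend removed. Those relative values ran from 0.92 to 1.04 for Ccnd1, 0.90 to 1.19 for Ccnd2, 0.79 to 0.94 for Cdk6, -0.83 to -0.77 for Ccnd3 and -0.79 to -0.42 for Cdkn2c. In the library labelled Gata12KO against WT, Ccnd3 ran from -0.67 to -0.58 and Ccnd1 from 0.26 to 0.46, while Cdk4, Cdkn2c, Ccnd2, Cdkn1a and Cdkn1b took both signs. Rescaling also moved the balance of all calls. Of all called genes 66.6% were lower in SclKO against WT, and 51.6% after rescaling over transcripts of 300 nt or longer. The share was 82.8% in the library labelled Gata12KO against WT, and 8.20% after rescaling to the summed FPKM. It was 52.6% in that library against SclKO, and 5.33% after the same rescaling.

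The wider pathway was described by lists of other genes. Their counts stand against the shares of all expressed genes called, which were 6.40% in SclKO against WT, 4.56% in the library labelled Gata12KO against WT and 7.17% between those libraries. Of 3 other CDK inhibitors, 1 was higher and 0 lower in SclKO against WT, where 237 of 11092 expressed genes were higher. The called inhibitor was Cdkn1c, which encodes p57, an imprinted CIP/KIP inhibitor of the embryo. It had 61.4 FPKM in WT, 133 in SclKO and 63.8 in the library labelled Gata12KO, with log2 ratios of 1.10 and 0.06 against WT and -1.05 in the third comparison, where it was called lower. That last call ended with the length trend removed, at -0.94. Per length it was the most abundant CDK inhibitor measured in each library. Cdkn2d, the remaining INK4 gene (17.6, 11.8 and 14.8 FPKM), and Cdkn3, a CDK phosphatase (16.5, 11.9 and 10.0), were not called. Cdkn2d alone thus exceeded the other INK4 genes together in each library.

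Among 13 pocket proteins and E2F factors, 12 were expressed and none was called in either comparison with WT. Rb1, which encodes RB itself, had 3.78 FPKM in WT, 2.34 in SclKO and 5.97 in the library labelled Gata12KO, and was higher in the last against SclKO (log2 ratio 1.06). E2f4, a mostly repressive E2F factor and the most abundant gene of the list, had 50.0, 48.3 and 36.2 FPKM. Against WT, the median log2 ratio of these genes was 0.10 in SclKO and 0.21 in the library labelled Gata12KO, or 0.04 and 0.17 with the length trend removed.

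Other cyclins, CDKs and their activators had 0 of 17 expressed members called in any of the 3 comparisons. The list's medians against WT were 0.09 in SclKO and -0.09 in the library labelled Gata12KO, the latter 0.07 with the length trend removed. Cdk1, the mitotic kinase, had 79.6 FPKM in WT, 68.9 in SclKO and 70.0 in the library labelled Gata12KO. Cdk2, the partner of E and A cyclins, had 42.8, 38.3 and 43.5 FPKM.

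Replication genes under E2F control, which lie downstream of the D cyclin kinases, had 0 of 24 called in any comparison. The medians against WT were 0.14 in SclKO and 0.11 in the library labelled Gata12KO, or 0.15 and 0.18 with the length trend removed. At the shares of all genes above, a list of this length need not hold any call. With the length trend removed, Tk1, which makes thymidine nucleotides, passed as higher in SclKO against WT (10.4 FPKM in WT and 19.0 in SclKO, log2 ratio 0.82 and then 1.00). Pcna, the sliding clamp of DNA polymerase, had 227, 166 and 194 FPKM. Mitotic genes had 0 of 21 called in any comparison, with medians of 0.31 and 0.15, or 0.30 and 0.38 with the length trend removed. Mki67, which marks cycling cells, had 153 FPKM in WT, 155 in SclKO and 136 in the library labelled Gata12KO. For both lists the median of all expressed genes was -0.04 and -0.08 in the same order.

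Of p53 and 19 of its targets other than Cdkn1a, 1 of 20 was called in each comparison with WT and 0 in the third. This was Sesn2, a stress response gene also induced by starvation, with 1.78 FPKM in WT, 5.64 in SclKO and 6.34 in the library labelled Gata12KO (log2 ratios 1.26 and 1.40). Trp53 had 34.3, 46.6 and 41.5 FPKM and its antagonist Mdm2 23.6, 17.9 and 25.9. A single call in 20 genes is near the share among all expressed genes. The list's medians were 0.01 and 0.03, or 0.11 and 0.18 with the length trend removed. With the length trend removed, Bbc3, a cell death gene, passed as higher in the third comparison (log2 ratio 0.91 and then 1.01). Genes for the turnover of D cyclins and CDK inhibitors had 0 of 11 called in any comparison. Their medians against WT were 0.09 and 0.07. Rbx1, the ring subunit of the cullin ligases and the most abundant member in WT, had 112, 70.9 and 68.9 FPKM. Ddb1, the most abundant member in both other libraries, had 79.9, 115 and 99.8 FPKM. Skp2, which marks p27 for breakdown, had 16.4, 17.5 and 14.9 FPKM.

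**Figure D4:**
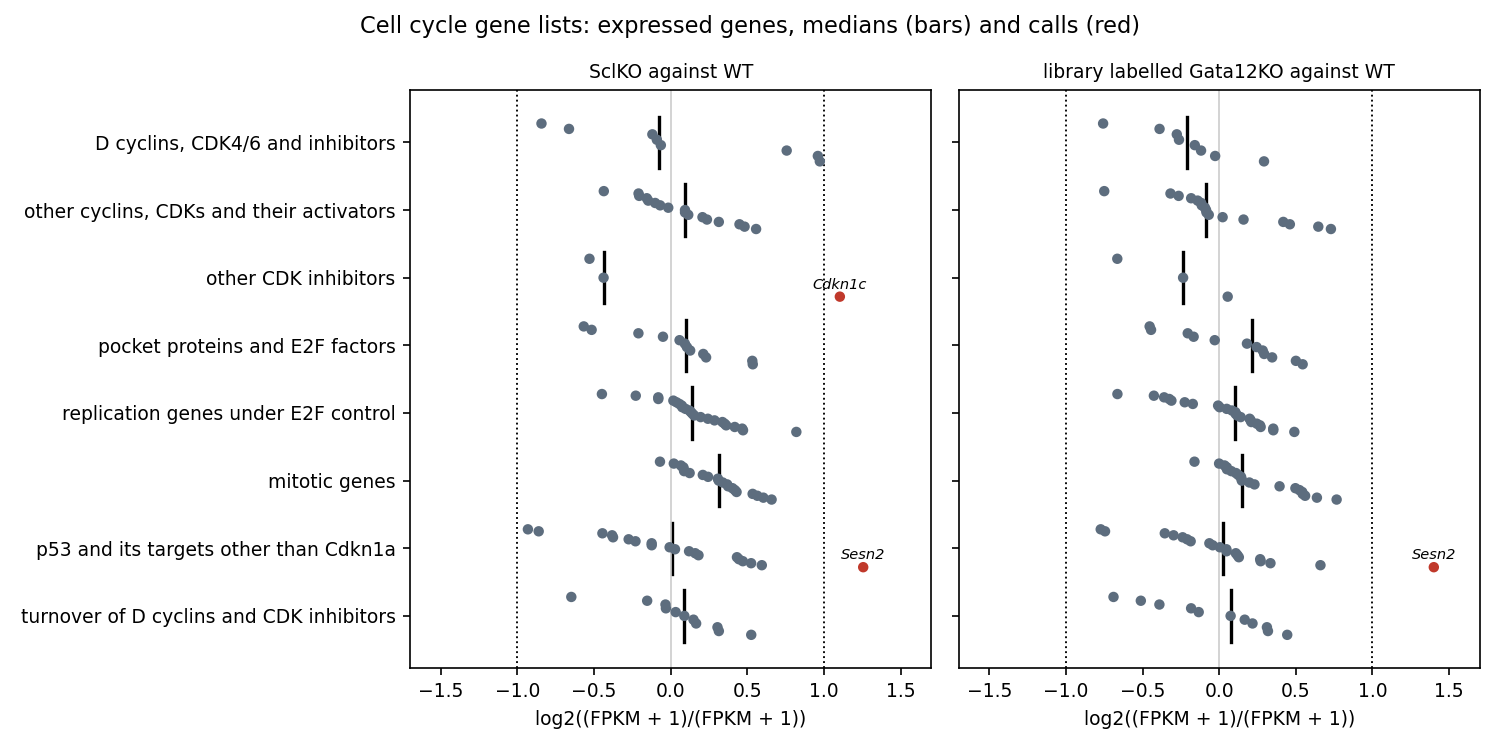
Log2 ratio of each expressed gene in the 8 genes described here (top) and 7 other cell cycle lists, in SclKO and in the library labelled Gata12KO, each against WT. Bars are list medians, red points are called genes and dotted lines mark 2-fold. Cdkn1c in SclKO, and Sesn2 in both, are the called genes.

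Markers of other cells moved with these groups. Summed levels of 11 erythroid markers were 188 FPKM in WT, 1.68 in SclKO and 12.3 in the library labelled Gata12KO, with the globin genes Hbb-y, Hba-a1 and Hba-a2 and the anion exchanger Slc4a1 among those listed at 0 in SclKO, and Hba-x and Slc4a1 in the last. The 12 leukocyte and platelet markers summed to 54.0, 1.54 and 24.8 FPKM. Of these, Itga2b, which encodes the CD41 that the sort selected against, held 22.8, 0.333 and 17.6 FPKM. Ptprc and Csf1r were listed at 0 in WT and SclKO, and Tyrobp in SclKO. The 14 cardiac and mesenchymal markers summed to 92.4, 148 and 45.0 FPKM, with none at 0. Epithelial and endoderm markers, 10 in all, summed to 95.7, 143 and 47.5 FPKM, with Afp at 0 in both knockout libraries. The keratins Krt8 (40.8, 77.5 and 17.1 FPKM) and Krt18 (45.2, 59.1 and 18.1) carried most of that sum, and others had another order, such as Sox17 at 4.34, 2.09 and 7.93. The 8 pluripotency markers summed to 10.0, 9.72 and 6.34 FPKM. Of the 14 endothelial markers, 8 were lower and 0 higher in SclKO against WT, where 6.40% of all expressed genes were called. In the library labelled Gata12KO, 2 were higher and 0 lower against WT, and 10 higher and 0 lower against SclKO. Shares of all expressed genes called there were 4.56% and 7.17%. Esam had 88.0, 14.9 and 85.2 FPKM, while Pecam1 had 48.3, 50.4 and 66.5. Ccnd3 and Cdkn2c had their highest level in the library with the highest summed blood markers, Itga2b among them. Ccnd1, Ccnd2 and Cdk6 had theirs in the library with the highest summed cardiac and mesenchymal markers. That library also had the highest Krt8 and Krt18 and the lowest summed endothelial markers. Beyond the top library the match was partial. Ccnd1 stood above WT (18.2 FPKM) in the library labelled Gata12KO (22.5), where the cardiac and mesenchymal sum was below WT. Ccnd3 had overlapping bounds in SclKO and the library labelled Gata12KO, whose Itga2b levels were far apart. Ccnd2, Cdk6 and Cdkn2c followed the order of those sums, with some bounds overlapping. The part of these markers in the levels of the 10 genes was not tested. In such sorted pools, fewer cells of a type and less RNA per cell cannot be told apart.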

How the data were processed

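RNA of 3 libraries (1 each of WT, SclKO and Gata12KO, grouped by their titles) was made from Tie2+CD31+CD41- cells with a Nugen Encore Complete kit and read as 50 bp reads, per the labels' protocols. The authors deposited FPKM values with lower and upper bounds for each RefSeq transcript, and the source column credits Cufflinks. The submitters' processing notes list TopHat2 2.0.4, Cufflinks 2.0.1 and Cuffdiff without saying what each did. They also list the builds hg19 and mm9, and coordinates are taken as mm9, the mouse build. The 30123 entries of each file were joined by exon structure. For 136 entries the Gata12KO file held a different accession, and 134 whose symbols differed were left out. RefSeq and GENCODE tables gave symbols for 29148 of 29551 accessions. A gene's level and bounds are sums over its entries, computed with Python 3.11.15 and pandas 2.3.3. The size rule was checked on simulated data. The length trend is a lowess fit (statsmodels 0.14.6, span 0.3). Depth follows from the bounds of genes with 1 entry, with over 94% of well-covered ones within 1% of a single fit. Bounds cover counting error and, for overlapping transcripts, part of the error of dividing reads, but no biological spread.

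The 10 genes and the lists were chosen with earlier results of these data known. All 10 genes are named. Of each list, called members and otherwise the most abundant one are named. For the turnover list this was Rbx1 in WT and Ddb1 in the other libraries. E2f4, Trp53, Mdm2, Skp2, Cdk2, Cdkn2d, Cdkn3, Tk1 and Bbc3 were added after their values were seen, as was the p53 motif. The rule for genes of like pattern applied to called genes in a comparison with WT, and none of the 10 was. The alternatives were pseudocounts of 0.1 and 5, minimum levels, 1.5-fold, no bounds, 3 rescalings, the length trend and single entries. The value of 1 erythroid marker is not reported here by name.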

Additional observations from a re-analysis of the deposited data

How the results depend on the processing

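No paired analysis was possible because each group has 1 library and the labels give no replicate numbers. Counts of called genes among the 10 changed as follows. In SclKO against WT, the count of higher genes went from 0 to 1 with a pseudocount of 0.1 (Ccnd2) and to 3 when rescaled over transcripts of 300 nt or longer, which also lifted Cdkn2a over the minimum and gave 1 lower. All expressed genes went from 237 to 479 higher with that pseudocount. Under the rescaling they went from 237 to 645 higher and from 473 to 689 lower. That rescaling multiplied levels by 3.39 in WT, 3.75 in SclKO and 4.20 in the library labelled Gata12KO. The added 1 and the minimum stayed at 1, so both weighed less against each level. Cdkn2a calls in this setting rest on an estimated 8, 0 and 17 reads in the same order. With 1.5-fold in SclKO against WT, 3 of the 10 were higher and 2 lower as deposited, after median-ratio rescaling and after rescaling to the library sum. Among all expressed genes 877, 934 and 666 were higher and 1253, 1177 and 1796 lower in the same order. The lower count at 1.5-fold was 1 with the length trend removed and 3 over transcripts of 300 nt or longer, both with 3 higher. All expressed genes gave 915 higher and 1043 lower with the trend removed, and 1860 and 1351 over 300 nt or longer. In the library labelled Gata12KO against WT, 1.5-fold gave 1 lower as deposited and after median ratios, beside 1555 and 1214 of all expressed genes. It gave 1 higher (Ccnd1) under the other rescalings, where 4928 (library sum) and 2392 (300 nt) of all expressed genes were higher. Against SclKO, the 1 lower gene became 2 with a pseudocount of 0.1 and over transcripts of 300 nt or longer. In the latter setting 1, Cdkn2a, was higher. The lower count became 0 with a pseudocount of 5, after rescaling to the library sum and after median ratios. Among all expressed genes 418 were lower as deposited, 692 with a pseudocount of 0.1 and 575 over 300 nt or longer. They numbered 161 with a pseudocount of 5, 123 after the library sum and 376 after median ratios. With 1.5-fold, 3 were lower as deposited, with the length trend removed and after median ratios, beside 1259, 972 and 1090 of all expressed genes. Over transcripts of 300 nt or longer there were 2 lower and 1 higher, beside 1293 lower and 1883 higher among all expressed genes. After rescaling to the library sum there were 0 lower and 5 higher, beside 297 lower and 6527 higher among all expressed genes. That scaling moves all genes one way. Combinations of 1.5-fold with a rescaling or the trend were chosen after seeing the data. Of 24 ratios of the 8 expressed genes, 11 kept their sign in every setting tried. Depth limits Cdkn2a, Cdkn2b and the upstream starts of Ccnd3 and Cdkn1a most, and the lack of replicates limits every comparison.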
